A study of Mus musculus with 24 samples.

Results

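Transcripts of 9 genes of the oligodendrocyte lineage were followed across the nucleus accumbens (NAc) of male and female C57BL/6J mice that had been exposed to subchronic variable stress (SCVS) or left unstressed. The genes were taken by symbol: Mbp, Mobp, Mog, Mag, Mal, Cnp and Opalin, which mature oligodendrocytes use to build and maintain myelin, and Pdgfra and Cspg4, which mark oligodendrocyte precursors. All 9 were found among the 38293 genes of the count table, and all 9 passed the filter on low counts that kept 18593 genes for testing. The mRNA data comprised 12 libraries, with 3 each from unstressed males, stressed males, unstressed females and stressed females. For each library the 10 punches of 5 mice were combined, so a library averages over animals and its spread is that of pools. The labels give an age of 9 weeks and no genetic modification, the females were in estrus or proestrus, and tissue was taken a day after the last of the alternating foot shock, tail suspension and restraint sessions. Separate libraries of small RNA came from the same pools.

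Oligodendrocytes wrap axons in myelin, a stack of membrane that speeds conduction and feeds the axon. They arise from precursors that divide under the control of platelet-derived growth factor, leave the cycle, pass through a brief newly formed stage and then switch on the genes of the myelin sheath under transcription factors such as Sox10, Olig2 and Myrf. In the ventral striatum myelinated axons run in bundles and in the anterior commissure, which passes through the NAc. In whole tissue, fewer oligodendrocytes and less RNA per oligodendrocyte cannot be told apart.

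The sequence just before the transcription start was read for the 8 genes that the RefSeq promoter table of build GRCm38.p6 holds, all except Mbp. Their coordinates belong to that build, which is later than the one used for the counts. Windows of 250 bases ending at the start were searched on both strands for CTGGNAC, a core motif of Myrf, for ACAAAG, a core motif of Sox proteins, and for the E-box CAGCTG of Olig proteins. The Sox letters were settled after the sequences had been seen. Of 32851 mouse promoter windows of this length, 16.1% held CTGGNAC, 16.5% held ACAAAG and 13.0% held CAGCTG, and no window of the 8 genes held CAGCTG. The windows of 4 genes are shown, picked with the expression values known: Mobp and Mog, the pair of genes that passed the adjusted test in males below, Mag, the myelin gene with the smallest male difference, and Cspg4, whose male difference had the opposite sign. Capitals mark CTGGNAC and ACAAAG, or their reverse complements GTNCCAG and CTTTGT.
Mobp, chr9:120149492-120149741, plus strand: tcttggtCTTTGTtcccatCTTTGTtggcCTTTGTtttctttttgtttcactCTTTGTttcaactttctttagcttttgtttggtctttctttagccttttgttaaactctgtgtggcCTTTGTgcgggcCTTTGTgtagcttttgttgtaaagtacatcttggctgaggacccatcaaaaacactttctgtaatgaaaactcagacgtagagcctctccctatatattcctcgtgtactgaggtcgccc
Mog, chr17:37023399-37023648, minus strand: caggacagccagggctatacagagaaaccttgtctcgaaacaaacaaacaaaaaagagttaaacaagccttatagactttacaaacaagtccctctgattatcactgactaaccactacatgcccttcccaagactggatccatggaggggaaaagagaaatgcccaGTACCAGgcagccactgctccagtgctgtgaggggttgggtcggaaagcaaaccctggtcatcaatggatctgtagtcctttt
Mag, first of 3 starts, chr7:30914864-30915113, minus strand: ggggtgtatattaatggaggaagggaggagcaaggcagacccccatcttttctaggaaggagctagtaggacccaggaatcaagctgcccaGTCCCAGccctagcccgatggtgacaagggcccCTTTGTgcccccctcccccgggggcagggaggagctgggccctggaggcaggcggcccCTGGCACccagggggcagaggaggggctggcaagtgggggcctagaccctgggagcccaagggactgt
Cspg4, chr9:56864854-56865103, plus strand: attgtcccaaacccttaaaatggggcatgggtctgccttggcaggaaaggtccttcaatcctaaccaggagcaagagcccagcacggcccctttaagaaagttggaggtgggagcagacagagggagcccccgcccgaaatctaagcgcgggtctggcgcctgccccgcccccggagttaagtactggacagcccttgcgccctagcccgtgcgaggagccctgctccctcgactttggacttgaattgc
The Mobp window held 6 copies of CTTTGT, and it was the 1 window of the 32851 with so many. Both the motif letters and the mark of 6 copies were set with this window seen, so its rank is not a test. The copies sit in a thymidine-rich stretch in which similar words without the full motif also recur. Mog held 1 copy of the Myrf motif and none of the Sox motif. The first and second windows of Mag, which overlap, each held 2 Myrf motifs and 1 Sox motif, the third held neither, and 2 or more Myrf motifs were found in 1.58% of all windows. The Cspg4 window held neither. Of the windows not shown, Cnp held 2 Myrf motifs and 1 Sox motif, Opalin held 1 Sox motif, and Mal and Pdgfra held none. These matches describe letters in a window and were not tested against the expression data.

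In the NCBIM37 annotation that the counts follow, the genes lie on 8 chromosomes, with Mobp and Cspg4 sharing chromosome 9. Mbp (ENSMUSG00000041607) spans 82644538 to 82755029 of chromosome 18 on the plus strand and Mobp (ENSMUSG00000032517) spans 120058860 to 120090602 of chromosome 9 on the plus strand. Mog (ENSMUSG00000076439) lies on the minus strand of chromosome 17 from 37147691 to 37160343, Mag (ENSMUSG00000036634) on the minus strand of chromosome 7 from 31684202 to 31699851, and Mal (ENSMUSG00000027375) on the minus strand of chromosome 2 from 127458962 to 127482431. Cnp (ENSMUSG00000006782) lies on the plus strand of chromosome 11 from 100436218 to 100453043 and overlaps Dnajc7 on the other strand. The library kit does not mark strand, so reads in the shared stretch cannot be assigned to one of the pair by strand. Opalin (ENSMUSG00000050121) lies on the minus strand of chromosome 19 from 41136964 to 41151603. Pdgfra (ENSMUSG00000029231) lies on the plus strand of chromosome 5 from 75548316 to 75594229, and Cspg4 (ENSMUSG00000032911) on the plus strand of chromosome 9 from 56712911 to 56747677. Mbp and Mog each also overlap a short noncoding gene model on the other strand, Rpl21-ps8 and 7SK.

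Myelin transcripts were abundant in every library. Between 41076780 and 60867747 reads were counted per library, and the 9 genes received from 0.339% to 0.437% of them, with Mbp alone taking 0.178% to 0.231%. The lowest count of any of the 9 in any library was 649 reads, for Cspg4, and the highest 123766, for Mbp. Divided by exon length, in CPM per kilobase, where CPM is a library-scaled read count, Mbp, the major protein that compacts the sheath, averaged 241 over the 12 libraries. Mobp, another protein of compact myelin, averaged 132. Cnp, an enzyme of the uncompacted myelin layers, and Mal, a lipid-raft protein of myelin, followed at 101 and 97.3, and Cnp exceeded Mal in 8 of 12 libraries, so their order was not fixed. Mag, an adhesion molecule at the inner face toward the axon, averaged 71.5 and Mog, a surface protein of the outermost layer, 37.0.

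The precursor genes lay well below the compact myelin genes on the same scale. Pdgfra, the receptor for the growth factor that drives precursor division, averaged 11.0 CPM per kilobase, and Opalin, a late oligodendrocyte membrane protein, averaged 10.4. Pdgfra exceeded Opalin in 7 of 12 libraries. Cspg4, which encodes the NG2 proteoglycan, was lowest at 2.35. All other neighbours kept their order in 12 of 12 libraries. Within groups the pooled standard deviation of log2 CPM ran from 0.0750 for Mbp to 0.170 for Opalin, beside a median of 0.0756 over the 9730 genes with a mean of at least 500 reads, and all members except Mbp lay above that median.

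**Figure D1:**
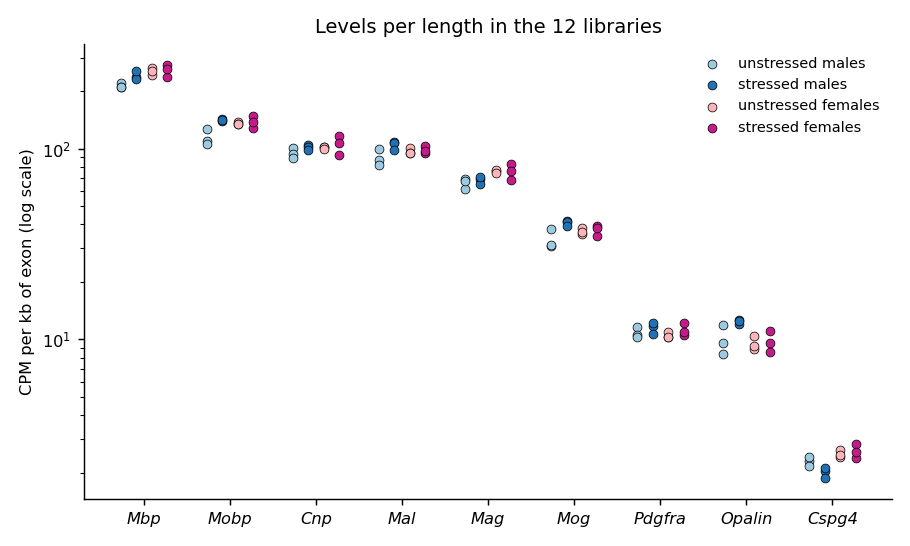
CPM per kilobase of exon (log axis) of the 9 genes, with each point 1 library and the 4 groups in color. Mbp is highest in every library and Cspg4 lowest, while the points of Cnp and Mal, and of Pdgfra and Opalin, intermingle.

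The first comparison asked how SCVS altered these transcripts in males. Of the 9 genes 2 rose in stressed males at an adjusted p under 0.05, Mobp by a fold of 1.24 and Mog by a fold of 1.22, and all 7 myelin genes had positive log2 fold changes, with the exception that Mag turned slightly negative when libraries were scaled by size only. None of the 9 genes reached the study's own threshold for a regulated gene, an unadjusted p under 0.05 together with a fold of at least 1.3, which 6.44% of all tested genes reached in this comparison (2.36% higher and 4.08% lower in stressed males). By edgeR and by DESeq2 that count was also 0. At an unadjusted p under 0.05 alone, 5 of 9 genes were higher and 1 lower, against 9.93% and 11.5% of all tested genes. The adjusted test was passed by 1.48% of all genes as higher. The median log2 fold change of the 7 myelin genes was 0.23, beside -0.01 over all tested genes.

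Mobp had 819, 711 and 688 CPM in the unstressed male libraries and 907, 930 and 916 CPM in the stressed male libraries. The stressed libraries lay within a narrow band above all unstressed ones. The log2 fold change was 0.32 (SE 0.07, limma adjusted p = 0.0238). Mog had 64.2, 52.5 and 53.4 CPM in unstressed males and 70.5, 70.0 and 66.7 CPM in stressed males, again without overlap. Its log2 fold change was 0.29 (SE 0.07, limma adjusted p = 0.0458). In both genes the first unstressed male library was the highest of its group. The same held for 7 of 7 myelin genes, and the third library was lowest for 5 of them, so these genes shared a library order. Leaving out any 1 of 4 male libraries, unstressed male 2 or 3 or stressed male 1 or 2, left no member with an adjusted p under 0.05, and leaving out stressed female 2 or 3 left 1, Mobp. Without unstressed male 1, 4 members had an adjusted p under 0.05 and 3 met the study's threshold, Mobp at 0.40, Mog at 0.39 and Opalin at 0.49, and the median of the 7 myelin genes was 0.31. Over all alternatives the adjusted p ran from 0.000319 to 0.149 for Mobp and from 0.00612 to 0.223 for Mog, with the fold change positive throughout.

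Opalin had the largest male fold change and the widest spread. It had 21.8, 17.5 and 15.4 CPM in unstressed males and 22.2, 23.3 and 22.9 CPM in stressed males, so the groups did not overlap but the first unstressed library came close to the stressed ones. The log2 fold change was 0.33 (SE 0.11, limma adjusted p = 0.123). Mal had 277, 242 and 229 CPM in unstressed males and 300, 298 and 274 CPM in stressed males. The groups overlapped by 1 library on each side, and the log2 fold change was 0.23 (SE 0.07, limma adjusted p = 0.0801). Mbp had 1846, 1766 and 1760 CPM in unstressed males and 1988, 1940 and 2134 CPM in stressed males. Every stressed library was above every unstressed one, with a log2 fold change of 0.17 (SE 0.06, limma adjusted p = 0.127).

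Cnp and Mag differed little between the male groups. Cnp had 365, 342 and 326 CPM in the unstressed and 382, 370 and 359 CPM in stressed males, with a log2 fold change of 0.10 whose 95% confidence interval ran from -0.05 to 0.26 (limma adjusted p = 0.404). Mag had 167, 149 and 164 CPM in the unstressed and 167, 158 and 172 CPM in stressed males. Its log2 fold change was 0.05 with an interval from -0.09 to 0.19 (limma adjusted p = 0.697), so the fold seen for Mobp lay outside the interval of Mag. The difference between the genes was not tested. Groups without overlap, stressed higher, were found for 4 of the 9 genes, Mbp, Mobp, Mog and Opalin, and for 11.3% of all tested genes.

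Of the precursor genes, Cspg4 had a negative and Pdgfra a positive male value, and neither passed the adjusted test. Cspg4 had 18.6, 17.4 and 19.4 CPM in unstressed males and 16.3, 15.1 and 17.1 CPM in stressed males. All stressed libraries were below all unstressed ones, as for 11.7% of all tested genes, with a log2 fold change of -0.20 (SE 0.08, limma adjusted p = 0.155). Pdgfra had 78.3, 70.8 and 69.2 CPM in unstressed males and 79.3, 82.1 and 71.6 CPM in stressed males. The groups overlapped, and the log2 fold change was 0.09 with an interval from -0.05 to 0.24 (limma adjusted p = 0.444).

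**Figure D2:**
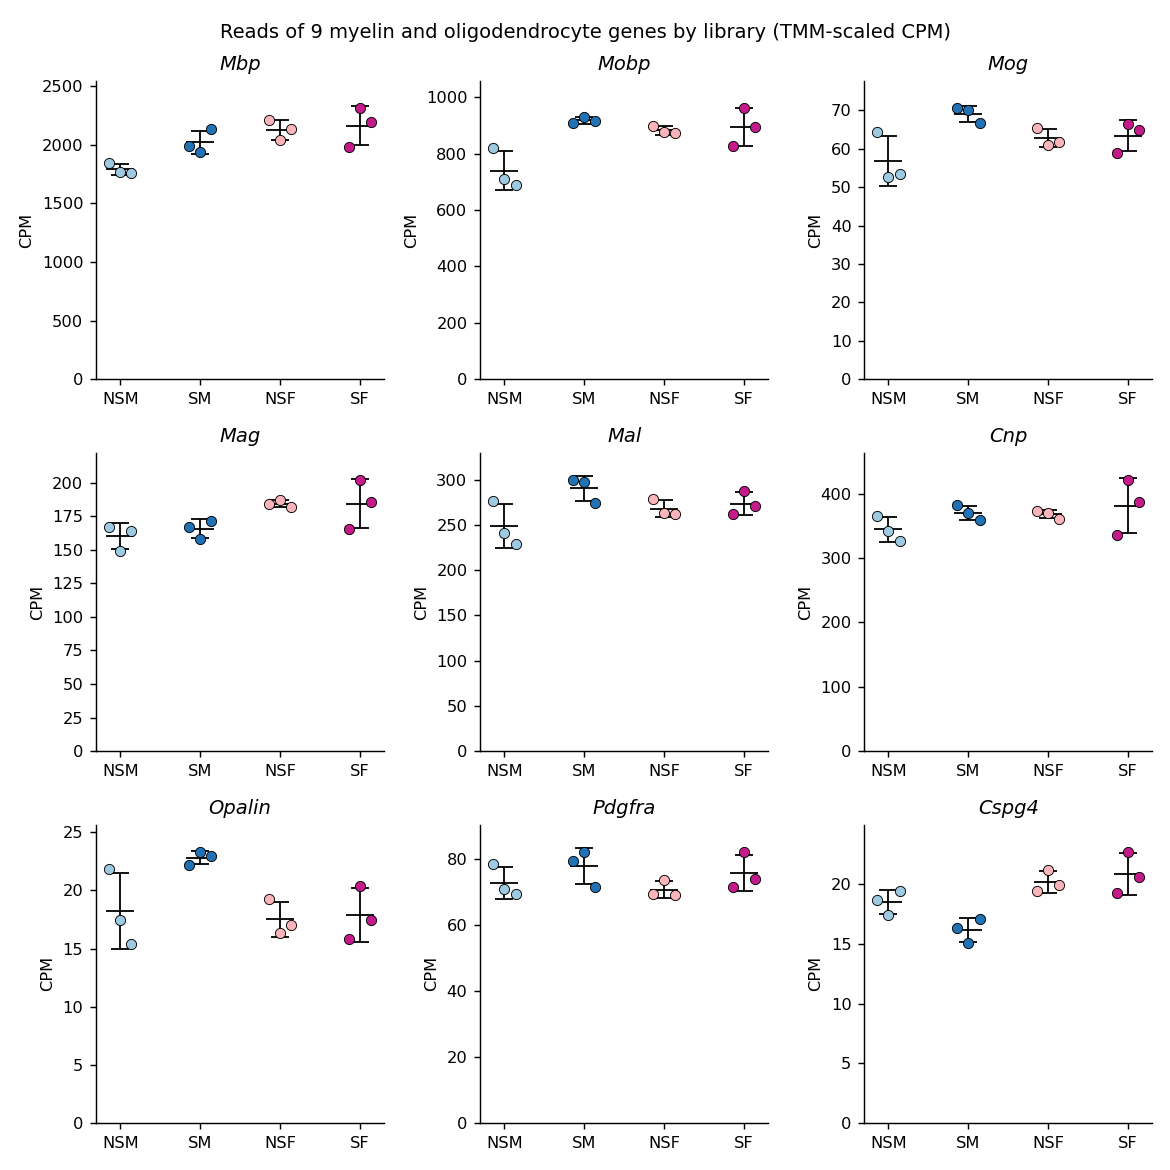
CPM of each of the 9 genes in the 12 libraries (points), with the mean and SD of each group of 3 (bars). NSM and SM are unstressed and stressed males, NSF and SF unstressed and stressed females. Mobp and Mog sit higher in all stressed male libraries than in all unstressed male libraries, Cspg4 sits lower, and the female groups overlap for all 9 genes.

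In females no member separated stressed from unstressed mice. The log2 fold changes of the 9 genes ran from -0.004 for Mag to 0.10 for Pdgfra, the groups overlapped for all 9, and 0 of 9 passed an unadjusted p under 0.05, a mark passed by 4.23% of all tested genes. At the study's threshold 0 of 9 were regulated, beside 1.73% of all genes, and edgeR and DESeq2 also gave 0. No gene in the table had a limma adjusted p under 0.05 in this comparison. The median of the 7 myelin genes was 0.02, beside -0.004 over all genes.

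Mobp had 899, 875 and 872 CPM in unstressed females and 828, 961 and 896 CPM in stressed females. Mog had 65.4, 60.9 and 61.8 CPM in the unstressed and 58.8, 66.4 and 64.9 CPM in stressed females. For both genes the stressed libraries lay on either side of the unstressed ones, and the 95% confidence intervals of the log2 fold changes ran from -0.12 to 0.16 for Mobp and from -0.14 to 0.17 for Mog. Mbp had 2215, 2042 and 2131 CPM in the unstressed and 1985, 2312 and 2190 CPM in stressed females. Opalin had 19.2, 16.4 and 17.0 CPM in the unstressed and 15.8, 20.4 and 17.5 CPM in stressed females. The first stressed female library was the lowest of its group for 7 of 7 myelin genes and the second the highest for 7 of 7, so the stressed females spread over a wider range than the unstressed ones.

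The same order held in the remaining myelin genes. Mag had 184, 187 and 182 CPM in the unstressed and 166, 202 and 185 CPM in stressed females. Mal had 279, 263 and 262 CPM in the unstressed and 263, 288 and 271 CPM in stressed females. Cnp had 373, 371 and 361 CPM in the unstressed and 336, 422 and 388 CPM in stressed females. Among the precursor genes, which followed the same library order, Pdgfra had 69.3, 73.5 and 69.0 CPM in the unstressed and 71.4, 81.9 and 73.9 CPM in stressed females. Cspg4 had 19.4, 21.2 and 19.9 CPM in the unstressed and 19.3, 22.7 and 20.6 CPM in stressed females. With an interval of -0.11 to 0.20 for Cspg4 and -0.05 to 0.24 for Pdgfra, changes of a fold like that of Mobp in males lay outside both.

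Whether the response differed between the sexes was tested by the interaction, the female minus the male log2 fold change. Values were negative for 7 of 7 myelin genes, with a median of -0.20 beside 0.01 over all genes. Mobp had an interaction of -0.30 (SE 0.09) and Mog of -0.27 (SE 0.10). For both, the male libraries separated and the female libraries did not. Cspg4 had an interaction of 0.24 (SE 0.10). All 3 were under an unadjusted p of 0.05 and none passed over all genes, with limma adjusted p values of 0.319, 0.410 and 0.488, while 0.0269% of all genes passed. At an unadjusted p under 0.05, 1 of 9 was higher and 2 were lower, against 5.14% and 4.4% of all tested genes. None of the 9 met the study's threshold, which 4.42% of genes met, by limma, edgeR or DESeq2. Leaving out unstressed male 1 or stressed female 2 brought Opalin past it, at -0.45 and -0.40.

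**Figure D3:**
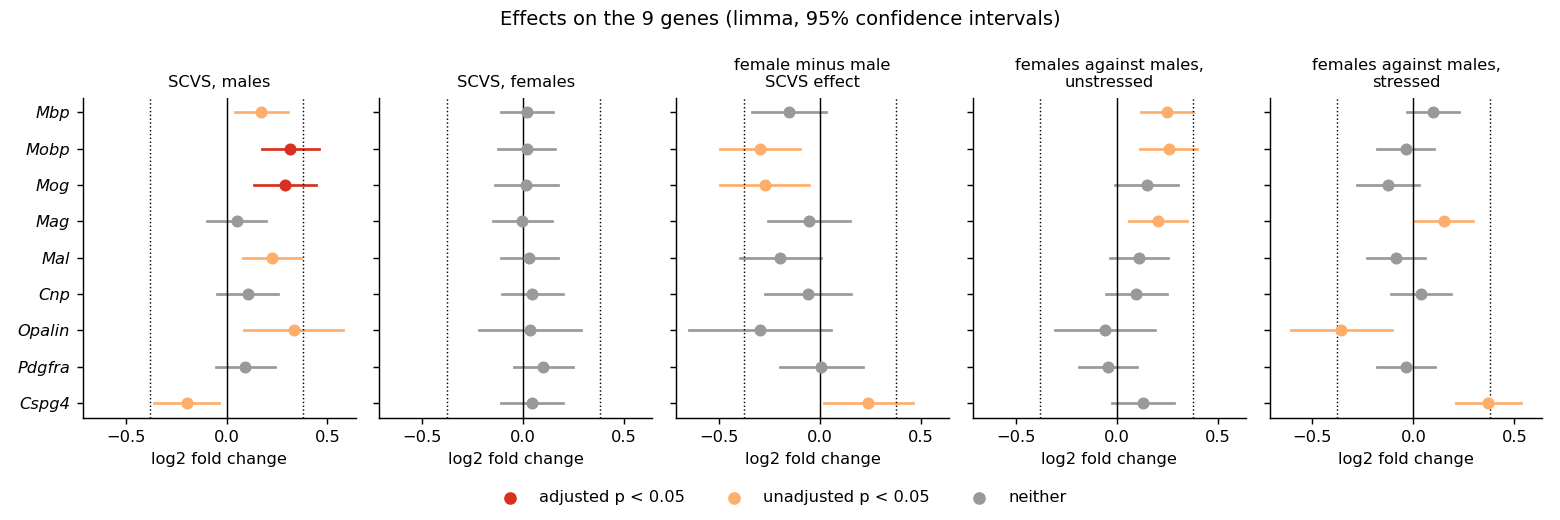
Log2 fold changes of the 9 genes in the 5 comparisons, with 95% confidence intervals from limma and dotted lines at a fold of 1.3 in each direction. Mobp and Mog in males are the values with an adjusted p under 0.05, and in females every interval spans 0.

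Unstressed females carried more Mbp and Mobp reads than unstressed males, though no member passed the adjusted limma test, which 0.285% of all genes passed. That call depended on the processing. DESeq2 gave adjusted p values of 0.0109 for Mbp and 0.0211 for Mobp, limma with library quality weights gave 0.0349 and 0.0407, and without unstressed female 2 Mbp had a limma adjusted p of 0.0433. Mbp was 1.19-fold higher (log2 0.25, SE 0.06, limma adjusted p = 0.103) and Mobp 1.20-fold higher (log2 0.26, SE 0.07, limma adjusted p = 0.110). Mag was 1.15-fold higher (log2 0.21, SE 0.07, limma adjusted p = 0.168). For these 3 genes and for Cspg4 every female library was above every male library, an arrangement found for 11% of all tested genes. Opalin had a log2 difference of -0.06, Mog 0.15, Mal 0.11, Cnp 0.10 and Pdgfra -0.04, all with overlapping groups. At an unadjusted p under 0.05, 3 of 9 genes were higher in females and 0 lower, against 10.2% and 5.17% of all genes. At the study's threshold 0 of 9 were called by limma, edgeR or DESeq2, beside 5.31% of all genes.

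Between stressed females and stressed males again no member passed the adjusted limma test, passed by 0.145% of all genes. Cspg4 was 1.29-fold higher in stressed females than in stressed males (log2 0.37, SE 0.07, limma adjusted p = 0.0825), and the lowest female library at 19.3 CPM exceeded the highest male library at 17.1. Cspg4 had an adjusted p of 0.00453 by DESeq2, and by limma of 0.00901 with quality weights, 0.0383 in a fit to only the libraries of the comparison, and 0.0320, 0.0473 and 0.0255 without unstressed male 1, unstressed male 3 and stressed female 1. Opalin was 1.28-fold lower in stressed females (log2 -0.36, SE 0.12, limma adjusted p = 0.147), with the highest female library at 20.4 CPM and the lowest male library at 22.2, and an adjusted p of 0.0439 in the limma fit to only the libraries of the comparison. Mag was higher in females (log2 0.15, limma adjusted p = 0.276), with overlap. Mog was lower without overlap (log2 -0.13, limma adjusted p = 0.409). Groups without overlap were found for 12.8% of all genes with females higher and for 7.65% with females lower. Mbp, Mobp, Mal, Cnp and Pdgfra lay between -0.09 and 0.10, and the median of the 7 myelin genes was -0.04. Of the 9 genes 2 were higher and 1 lower at an unadjusted p under 0.05, against 11.7% and 4.76% of all genes, and 0 of 9 met the study's threshold, met by 5.55% of all genes, with 0 also by edgeR and DESeq2. Cspg4 met it without stressed male 3 or stressed female 1, at 0.41 and 0.42, and Opalin without stressed male 1 or stressed female 2, at -0.38 and -0.47.

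Other genes of the lineage were read from 3 lists. The first held 24 further myelin genes, all tested. In stressed males 11 of 24 were higher and 0 lower at an unadjusted p under 0.05, 23 of 24 had positive values and the median log2 fold change was 0.13, beside 9.93% higher and a median of -0.01 over all genes. Apod, an apolipoprotein secreted by oligodendrocytes and astrocytes, rose by a log2 of 0.39 (SE 0.08, limma adjusted p = 0.0183). It was the 1 gene of the list at the study's threshold, beside 2.36% of all genes in that direction. Anln, a septin-binding scaffold protein of the sheath, rose by 0.25 (SE 0.06, limma adjusted p = 0.0361). In stressed females 0 of the 24 were higher and 1 lower at that p, Hapln2 at -0.30. In that comparison 4.23% of all genes passed in either direction. In fits added after the data were seen, the male count of 11 higher genes became 7 under scaling by library size only, 17 without unstressed male 1, and 4 higher with 1 lower under the cortical covariate described below, while 22 of the 24 values were positive in each of these. The male count of 1 gene higher at the study's threshold became 0 under scaling by library size only and without unstressed male 3, and 1 gene was lower at it under the cortical covariate.

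Between unstressed females and males, 7 of the 24 myelin genes were higher in females and 0 lower at an unadjusted p under 0.05, against 10.2% and 5.17% of all genes. Hapln2, a link protein of the matrix at nodes of Ranvier, was higher in females by a log2 of 0.84 (SE 0.14, limma adjusted p = 0.0285) at a low level, 13.5 CPM (SD 1.94) against 7.59 CPM (SD 1.35), with n = 3 each. In the same added fits the count of 7 became 1 without unstressed male 2, 4 without unstressed male 3, 11 without unstressed male 1 and 3 under the cortical covariate. After stress 3 were higher and 1 lower at that p, against 11.7% and 4.76% of all genes. The study's threshold was met by 2 as higher, beside 4.58% of all genes in that direction. These were Hapln2 at 0.46 (limma adjusted p = 0.139) and Gal3st1, the enzyme that makes sulfatide, at 0.45 (limma adjusted p = 0.150). In the interaction 0 of 24 were higher and 4 lower, against 5.14% and 4.4% of all genes, Apod at -0.35, Gjc3, a connexin, at -0.22, Omg, a surface glycoprotein, at -0.21 and Sept4 at -0.20.

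The second list held 10 transcription factors of the lineage. In males 0 of 10 were higher and 2 lower at an unadjusted p under 0.05, against 9.93% and 11.5% of all genes, with a median of -0.11. Tcf7l2, a Wnt effector active in newly formed oligodendrocytes and also in some neurons, fell by 0.53 on the log2 scale (SE 0.13, limma adjusted p = 0.0484), to 5.54 CPM (SD 0.114, n = 3) in stressed males. Sox10, which is needed for the myelin program, had a log2 fold change of -0.30 (SE 0.11, limma adjusted p = 0.143), with all stressed libraries lower. Negative values were found for 8 of 10, and for 5 of 10 without unstressed male 3. Olig2, the determinant of the lineage, had 0.04 in males and -0.11 in females. In females 0 of 10 were higher and 1 lower, Zfp536 at -0.21, beside 4.23% of all genes in either direction, and Sox10 had 0.03. The interaction met the study's threshold for Tcf7l2 at 0.72 (limma adjusted p = 0.228), beside 4.42% of all genes. At an unadjusted p under 0.05, 2 of 10 were higher and 0 lower, against 5.14% and 4.4% of all genes, with Sox10 at 0.33.

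Several of the same factors stood higher in females than in males. Without stress, 5 of 10 were higher and 1 lower at an unadjusted p under 0.05, against 10.2% and 5.17% of all genes, the lower one being Tcf7l2 at -0.34, and 3 met the study's threshold, beside 4.17% of all genes in that direction. Olig2 was higher by a log2 of 0.41 (SE 0.07, limma adjusted p = 0.0304), with 23.0 CPM (SD 0.934) in females and 17.3 CPM (SD 1.02) in males, n = 3 each. Olig1 was higher by 0.51 (limma adjusted p = 0.162) and Nkx6-2, a homeobox factor of mature oligodendrocytes, by 0.73 (limma adjusted p = 0.186). Without unstressed male 1, and under the cortical covariate, 0 of the 10 met the threshold. After stress, 6 of 10 were higher and 0 lower at that p, against 11.7% and 4.76% of all genes. The study's threshold was met by 4, beside 4.58% of all genes in that direction. That count was 3 with DESeq2 size factors, under the cortical covariate and without unstressed male 1, 2 or 3. Under quantile normalization it was 2. Nkx6-2 was higher by 1.11 (limma adjusted p = 0.0943), Olig1 by 0.60 (limma adjusted p = 0.108), Sox10 by 0.40 (limma adjusted p = 0.106) and Tcf7l2, named here after its value was seen, by 0.38 (limma adjusted p = 0.188). Olig2 had a log2 difference of 0.27 (limma adjusted p = 0.105). Nkx6-2 averaged 2.86 to 6.14 CPM across the groups and is the lowest of the factors named here.

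The third list held 15 genes of precursors and newly formed oligodendrocytes, of which 14 were matched and tested. In males 1 was higher and 1 lower at an unadjusted p under 0.05, against 9.93% and 11.5% of all genes. Bcas1, a marker of oligodendrocytes that are beginning to myelinate and also a component of mature myelin, rose by a log2 of 0.34 (SE 0.07, limma adjusted p = 0.0269). Gpr17, a receptor of late precursors, had a log2 fold change of -0.22 (SE 0.06, limma adjusted p = 0.0617), with every stressed library below every unstressed one. Its interaction was 0.29 (limma adjusted p = 0.292). Bmp4, a signal that newly formed cells make, had 0.29 in males (limma adjusted p = 0.377) and 0.07 in females at 1.32 to 1.70 CPM. In females 0 of 14 passed an unadjusted p under 0.05, beside 4.23% of all genes. Without stress 2 were higher and 1 lower in females than in males, the latter Gpr17 at -0.15, against 10.2% and 5.17% of all genes. After stress 4 were higher and 0 lower, against 11.7% and 4.76%, among them C1ql1, a secreted protein of precursors, by 0.38 (limma adjusted p = 0.113). C1ql1 was the 1 gene of the list at the study's threshold, beside 4.58% of all genes in that direction. In the added fits the 4 became 2, and the 1 became 0, with DESeq2 size factors, under quantile normalization and without unstressed male 1 or 2. The 4 became 3 under the cortical covariate, and stayed 4 under library size only and without unstressed male 3.

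**Figure D4:**
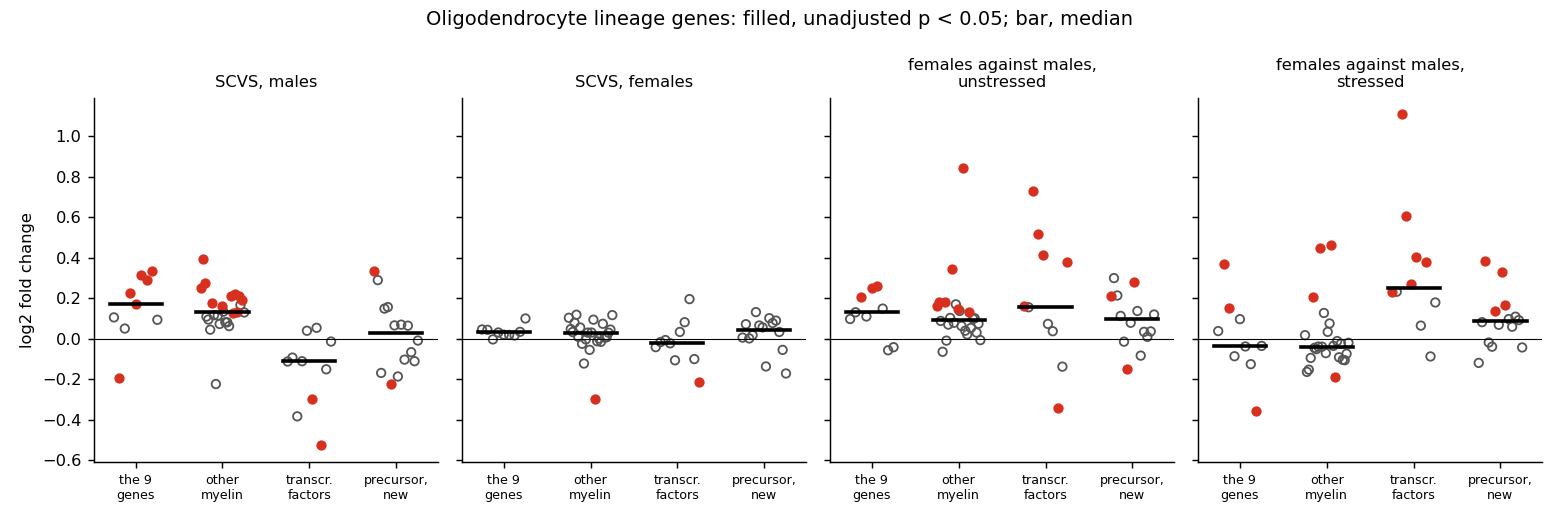
Log2 fold changes of the 9 genes and of 3 further lists of lineage genes in 4 comparisons, with 1 point per gene, filled where the unadjusted p is under 0.05, and a bar at the median. In males 23 of 24 other myelin genes lie above 0 while 8 of 10 transcription factors lie below it, and 47.3% of all tested genes lie above it. These counts are 22 of 24 and 9 of 10 when libraries are scaled by size only. Without unstressed male 3 they are 22 of 24 and 5 of 10.

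Markers of other cells were set beside these values because the punches hold more than oligodendrocytes. Genes of cortical glutamatergic neurons, which are not cells of the NAc, differed most between libraries. The summed level of 8 such genes was 68.6 to 86.4 CPM in unstressed males, 115 to 293 CPM in stressed males, 88.3 to 502 CPM in unstressed females and 116 to 200 CPM in stressed females. Slc17a7, the vesicular glutamate transporter of cortex, ran from 4.02 CPM in the second unstressed male library to 297 CPM in unstressed female library 3. In males 3 of 8 were higher and 0 lower at an unadjusted p under 0.05, against 9.93% and 11.5% of all genes, and the median log2 fold change was 2.52. The unstressed males were thus lowest both in this list and in most myelin genes, in the male comparison and in that of the unstressed sexes. With the mean of the cortical list as a covariate, an alternative added after the data were seen, the male log2 fold change was 0.31 for Mobp (limma adjusted p = 0.149) and 0.26 for Mog (limma adjusted p = 0.223), and 0 of 9 genes had an adjusted p under 0.05. Its part in the result beyond that fit was not tested.

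Across the 12 libraries the mean log2 CPM of the 7 myelin genes had a Pearson r of 0.528 (two-sided permutation p = 0.0790) and a Spearman rho of 0.399 (permutation p = 0.204) with the mean of the cortical list. Leaving out 1 library at a time, r ran from 0.345 to 0.631. Between deviations from the group means it was 0.0637. Without unstressed male libraries 2 and 3, those farthest from the median in myelin level, r was 0.139. Those libraries were chosen by the myelin level itself, which narrows its range, so the lower r cannot show what the relation rested on. Against the mean of 10 genes of striatal neurons, r was -0.031 (permutation p = 0.922) and rho 0.119 (permutation p = 0.717), with r of -0.277 without the same libraries and -0.410 within groups. Of these 2 relations neither passed after adjustment, with adjusted p values for r of 0.158 and 0.922 and for rho of 0.408 and 0.717.

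**Figure D5:**
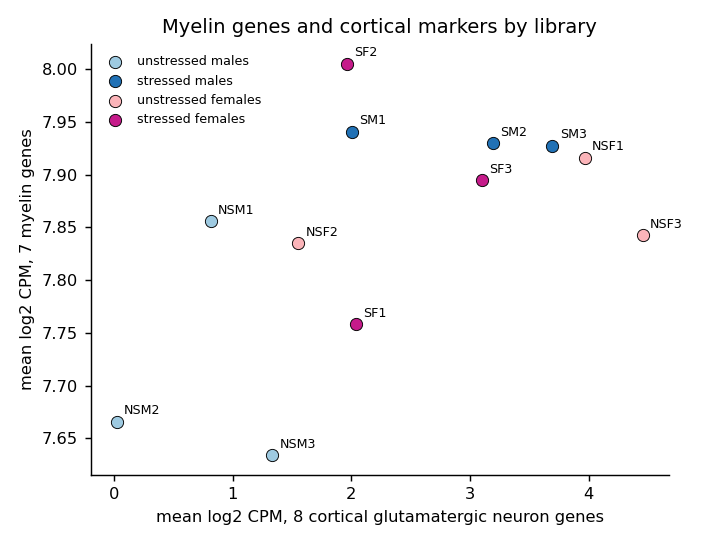
Mean log2 CPM of the 7 myelin genes against that of 8 cortical glutamatergic neuron genes, with 1 point per library labelled by group and replicate number. The unstressed male libraries 2 and 3 lie apart at the low end of the myelin axis, and the other 10 libraries show no clear slope.

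Both precursor genes also occur in vessel-associated cells, Cspg4 in pericytes and Pdgfra in fibroblasts. Among 7 pericyte genes 1 was higher and 0 lower in stressed males at an unadjusted p under 0.05. That mark was passed by 9.93% and 11.5% of all genes. Male log2 fold changes were positive for 5 of the 7 and negative, as for Cspg4, for 2. The summed level was 163 to 168 CPM in the unstressed and 174 to 192 CPM in stressed males. Rgs5 made up the largest part of it, with means of 90.9 and 102 CPM. The part of pericytes in the Cspg4 difference was not tested. In stressed against unstressed females 0 of the 7 pericyte genes were higher and 1 lower, where 4.23% of all genes passed in either direction. In stressed females against stressed males 0 were higher and 1 lower, beside 11.7% and 4.76% of all genes. Among 7 fibroblast genes 2 were lower in stressed males and 0 higher, beside the male shares above. Of the Schwann cell genes, which would mark peripheral myelin, 3 were tested. At that p 0 were higher and 1 lower in stressed males, beside the same male shares.

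Microglial genes were higher in stressed males in 6 of 9 cases and lower in 0 at an unadjusted p under 0.05, against 9.93% and 11.5% of all genes, with a summed level of 347 to 366 CPM in the unstressed and 385 to 427 CPM in stressed males. P2ry12 rose by a log2 of 0.39 (limma adjusted p = 0.0245) and Cx3cr1 by 0.29 (limma adjusted p = 0.0405). Tmem119 at -0.06 and C1qc at -0.03 had negative values, and C1qa had 0.06, none of them under that unadjusted p. Among 8 astrocyte genes 1 was higher and 3 lower, among 7 endothelial genes 2 were higher and 1 lower, and among 10 striatal neuron genes 2 were higher and 0 lower in stressed males, beside the same shares of all genes. Under the cortical covariate 4 of 9 microglial genes were higher and 0 lower. Most genes of the microglial list were thus higher in the same libraries as most myelin genes in males, and their part in the result was not tested. The defining striatal genes were high in all libraries, with a summed level of 4449 to 5641 CPM.

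The genes whose pattern over the 12 libraries was most like the mean of the 7 myelin genes were sought among 17565 genes with a mean of at least 10 reads. Gatm, the first enzyme of creatine synthesis, had the highest Pearson r at 0.944, followed by Arsg at 0.939, Bcas1 at 0.933, Abca6 at 0.919, Csrp1 at 0.917, Litaf at 0.914, Pllp at 0.913, Tmem88b at 0.912, Slc25a45 at 0.904 and Sept4 at 0.903. Pllp encodes plasmolipin, a myelin proteolipid, and Sept4 a septin of the sheath, and of the 10 genes Bcas1 and Sept4 were on the lists above. For the mean of Pdgfra and Cspg4 the closest genes were Cmbl at 0.935, Trp73 at 0.931, Sparc at 0.914, A230051G13Rik at 0.900, Cacna2d2 at 0.899, Lbp at 0.899, 4932411E22Rik at 0.892, Spsb4 at 0.884, Fam183b at 0.876 and Slc39a4 at 0.871. None of these 10 was on a lineage list. These correlations describe 12 libraries that share depth, pooling and dissection, and they carry no test.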

How the data were processed

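Deposited counts for 12 mRNA libraries and 12 small RNA libraries, 3 per sex and stress condition, were analysed. Per the labels and the methods of the study, the authors aligned mRNA reads with TopHat2 to NCBIM37 and small RNA reads with Bowtie to mm9, and counted them with HTSeq. The deposited values are raw read counts per gene or per miR precursor, without normalization. The strand setting is not given in the sources used here, and the kit (TruSeq v2) does not mark strand.

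Symbols, positions and exon lengths came from the GENCODE annotation of NCBIM37. A gene was kept if over 5 reads were counted in 80% or more of the libraries of any group. Counts were scaled by TMM factors and fitted with voom and limma 3.58.1 in R 4.3.3, with 1 mean per group over all 12 libraries. Benjamini-Hochberg adjustment ran over the 18593 tested genes of each comparison. CPM are scaled by TMM. Confidence intervals are 95% intervals of the moderated fit. "Rose" and "fell" are kept for genes that passed an adjusted p under 0.05 or the study's threshold. Alternatives used edgeR 4.0.16, DESeq2 1.42.0, other scalings, filters and thresholds, library quality weights, a replicate block and fits without 1 library each. Permutation tests used numpy 2.4.6 with 100000 resamples, and r and rho came from scipy 1.17.1. The fit was tested on simulated data. Replicate libraries of a group differed by more than counting error in all pairs.

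The 9 genes and all lists were chosen with earlier results of these data known. Named in the text are the 9 genes, each gene of the 3 lineage lists at the study's threshold up to 6 per comparison, Olig2, Sox10, Gpr17 and Bmp4, and the 10 genes most like each mean. Anln, Bcas1, Gjc3, Omg, Sept4, Zfp536, P2ry12, Cx3cr1, Tmem119, C1qc, C1qa and Slc17a7 were named after their values were seen. Lhfpl3 and Ncmap were not matched and Pmp2 was not tested. Some items are not reported here. Pools came from separate mice, 5 to a pool, and with 3 pools per group p values rest on the spread borrowed across genes.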

Additional observations from a re-analysis of the deposited data

Results flagged for a closer look

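The SCVS effect on 3 of the 9 genes differed between females and males by the interaction test at an unadjusted p under 0.05. Of all tested genes 5.14% were higher and 4.4% lower at that mark. The difference, female minus male, was -0.30 for Mobp (limma adjusted p = 0.319), -0.27 for Mog (limma adjusted p = 0.410) and 0.24 for Cspg4 (limma adjusted p = 0.488), all on the log2 scale. For the 3 genes the male groups did not overlap and the female groups did. Male groups without overlap were found for 11.3% of all tested genes as higher and 11.7% as lower. The 3 genes were picked by the interaction, so this pattern follows in part from the picking and adds no separate support. None of the 3 passed adjustment over all tested genes.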

How the results depend on the processing

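The number of the 9 genes at the study's threshold was 0 in all 5 comparisons. Judged by the adjusted p without a fold threshold it was 2 higher in males, and by the unadjusted p without one it was 5 higher and 1 lower in males, 1 higher and 2 lower in the interaction, 3 higher between unstressed sexes, and 2 higher and 1 lower between stressed sexes. The shares of all tested genes at these marks are given with each comparison above. Between stressed sexes 1 gene was higher under library size only and under quality weights, and 1 lower under quantile normalization. Without 1 library each, the counts ran from 0 to 3 higher in males, 0 to 1 lower in the interaction, and 0 to 1 in each direction between stressed sexes. The male median of the 7 myelin genes ran from 0.17 to 0.31.

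The number of genes with an adjusted p under 0.05 in males, 2, became 4 by DESeq2, 1 under library size only, 1 under quantile normalization, 1 with a filter of at least 1 read in any library, 0 in a fit to only the libraries of the comparison and 0 with the cortical marker covariate, and ran from 0 to 4 without 1 library each.

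Values near 0 changed sign. The male log2 fold change of Mag was -0.0011 under library size only. In females Mbp was -0.09 and Mobp -0.034 under quantile normalization, and Mog was -0.0016 under library size only. Mag in females was 0.000897 by edgeR, 0.00671 by DESeq2, 0.00228 with DESeq2 size factors, 0.000102 with at least 1 read in any library, 0.028 with quality weights and 0.00222 with the cortical covariate. The interaction of Pdgfra was -0.000504 under quantile normalization, -0.0096 with quality weights and -0.11 with the cortical covariate, and its difference between unstressed sexes was 0.056 with that covariate. The cause of these changes was not tested.

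Without 1 library each, female values ran from -0.023 to 0.079 for Mbp, -0.028 to 0.072 for Mobp, -0.013 to 0.067 for Mog, -0.066 to 0.069 for Mag, -0.023 to 0.13 for Cnp, -0.063 to 0.12 for Opalin and -0.015 to 0.097 for Cspg4. Interactions ran from -0.12 to 0.020 for Mag, -0.14 to 0.028 for Cnp and -0.053 to 0.046 for Pdgfra. Differences between unstressed sexes ran from -0.18 to 0.078 for Opalin and -0.081 to 0.0040 for Pdgfra, and between stressed sexes from -0.10 to 0.015 for Mobp, -0.048 to 0.13 for Cnp and -0.10 to 0.0043 for Pdgfra. In males mir-138-1 ran from -0.17 to 0.11 and mir-138-2 from -0.046 to 0.11. The r with the striatal list ran from -0.36 to 0.162, and was -0.429 under library size only.

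The labels do not tie the replicate numbers to a shared batch, and they were not taken to pair the pools, since not every same-numbered pair correlated above 0.1. That rule cannot exclude a batch shared by only some pairs. Deviations from the group means correlated from -0.086 to 0.316 between same-numbered mRNA libraries and from -0.191 to 0.181 between others, and number 3 in unstressed and stressed males gave the highest value. Other mRNA pairs of number 3 ran from -0.022 to 0.182, and the small RNA pairs of number 3 from 0.016 to 0.307. In the mRNA, unstressed males 1 and 2 each correlated best with a library of another number, stressed male 2 (0.181) and stressed male 1 (0.150). The small RNA gave 0.171 and 0.188 for these pairs, and 0.294 for number 3 of the male groups. The replicate block goes by number and does not join the pairs of unlike number. A block on such pairs was not fitted. With the replicate block 3 genes had an adjusted p under 0.05 in males, Mal (limma adjusted p = 0.0427) joining Mobp and Mog, and Mbp passed between unstressed sexes (limma adjusted p = 0.0449) and Cspg4 between stressed sexes (limma adjusted p = 0.0167). Pairs with the planned miRs mir-219a-2 and mir-338 were not run because they had almost no reads.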

Other observations

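The small RNA libraries, with 5086554 to 13522287 reads each, were searched for miRs known from oligodendrocytes. The precursors of the pair most closely tied to the lineage were practically without reads, with 1 read for mir-219a-1, 1 for mir-219a-2 and 0 for mir-338 over all 12 libraries. Their mature sequences by RefSeq (GRCm38.p6), with the seed at bases 2 to 8 in capitals, are shown because no level can be given for them.
miR-219a-5p: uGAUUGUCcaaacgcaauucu
miR-338-3p: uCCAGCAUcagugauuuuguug
By the RefSeq table, each of these hairpins overlaps another listed hairpin on the other strand, mir-219a-1 with mir-219c, mir-219a-2 with mir-219b and mir-338 with mir-3065. Of the 40 precursors in the count table whose hairpin overlaps another listed hairpin, 39 (97.5%) had at most 12 reads over the 12 libraries together, and the largest total was 25 reads. Of the 892 that overlap none, 351 (39.3%) had at most 12 reads. The part of such overlaps in the low counts was not tested, and no level of these miRs is given.

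The other precursors searched were well counted. The mean level of mir-138-1 was 8785 CPM in unstressed males, 8581 CPM in stressed males, 7228 CPM in unstressed females and 8098 CPM in stressed females, and that of mir-23a was 377, 435, 359 and 407 CPM in the same order. The log2 fold change of mir-23a was 0.20 in males (limma adjusted p = 0.401) and 0.19 in females (limma adjusted p = 0.645). In unstressed females against unstressed males the log2 difference was -0.28 for mir-138-1 (limma adjusted p = 0.262) and -0.20 for mir-138-2 (limma adjusted p = 0.290). None of the 3 precursors had an adjusted p under 0.05 in any of the 5 comparisons.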
